A study of Mus musculus with 32 samples.

Results

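The tibialis anterior (TA), a limb muscle, was compared between albino and pigmented mice in 8 of the 32 RNA-sequencing libraries of the series. The C57BL/6 side is the 4 libraries labelled TA. The albino side is every library of the strain B6(CG)Tyr(c-2J)/J chosen by a normalised count, in CPM (counts scaled to a common library total), of more than 1000 for Ckm, muscle creatine kinase, and fewer than 100 for Myh13, the eye muscle myosin. This rule found 4 libraries: the albino TA replicates 3 and 4, and 2 libraries that carry a CN6 (abducens nucleus) label, replicates 3 and 4. The last 2 were therefore reassigned by their marker genes, against their labels. The 2 remaining libraries labelled albino TA, replicates 1 and 2, held 0.106 and 0.306 CPM of Ckm and were left out.

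The study asked how gene expression relates to nystagmus, an involuntary oscillation of the eyes, in this albino strain, and sampled eye muscle, TA and 2 groups of oculomotor neurons. Pigmented controls are labelled C57BL/6 with no substrain. RNA came from an RNeasy Fibrous Tissue or Lipid Tissue kit, and the labels do not say which kit served which library. They give no age, sex or time of collection, and they do not say that replicates are separate animals, so p-values measure the spread between these libraries. Genotype and any difference in those unrecorded conditions cannot be told apart.

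Tyrosinase, encoded by Tyr, is the first enzyme of melanin synthesis, and its loss removes pigment from hair, skin and eyes. Muscle fibres do not make melanin. The TA lifts the foot and consists mainly of fast fibres, among which lie capillaries, nerve branches, connective tissue sheaths, fibroblasts and resident macrophages, all of which contribute RNA to a whole muscle sample. Muscle also runs a circadian clock, in which Arntl and Clock or Npas2 drive the Per, Cry and Nr1d genes that in turn repress them.

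The markers set these 8 libraries apart by a wide margin. Ckm read 13127, 12834, 13305 and 12993 CPM in C57BL/6 replicates 1 to 4. In the albino libraries, given here and below in the order TA 3, TA 4, CN6 3 and CN6 4, it read 14902, 14488, 13325 and 13007 CPM. Myh13 read 32.3, 34.8, 23.8 and 33.6 CPM in C57BL/6 and 23.8, 24.9, 19.5 and 94.0 CPM in the albino group. Library CN6 4, at 94.0 CPM, lies closest to the limit of 100, and would read 105 CPM with the ribosomal precursor Rn45s left out of its total. The nearest muscle library outside the rule, labelled albino CN3 3, held 3742 CPM of Myh13. These values chose the libraries and were not tested.

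**Figure D1:**
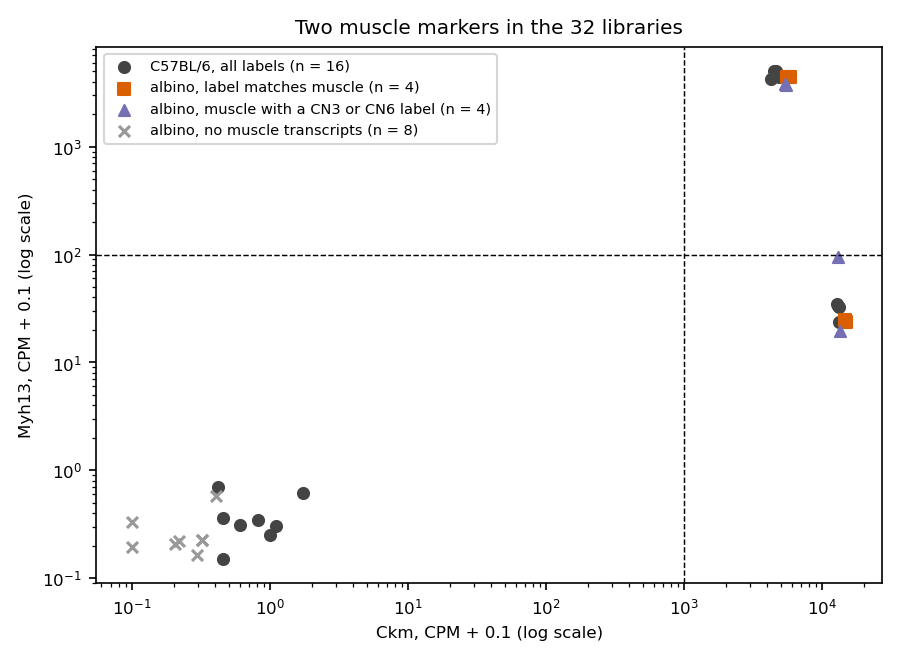
Ckm (horizontal) against Myh13 (vertical) in the 32 libraries, each as CPM + 0.1 on log axes, with dashed lines at the limits of 1000 and 100 CPM. The 8 limb muscle libraries lie at the lower right, and 2 of the 4 triangles, albino muscle with a nerve nucleus label, lie among them.

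Hox genes, which the rule did not use, and genes of eye muscle were compared with their levels in eye muscle. Here and below a fold change is a log2 value, albino over C57BL/6, with its standard error, and a gene is called at an adjusted p under 0.05 (edgeR's quasi-likelihood test, Benjamini-Hochberg over all genes tested). Hoxc10, a positional gene of the hindlimb, read 98.7, 97.0, 90.2 and 86.2 CPM in C57BL/6 and 91.4, 94.0, 95.5 and 82.0 CPM in the albino libraries, against 0 to 0.848 CPM in the 8 eye muscle libraries. The 2 genotypes overlapped (-0.02 ± 0.06, adjusted p = 0.8), though with offsets for GC content and gene length Hoxc10 was called lower (-0.21, adjusted p = 0.018). Of 11 Hox and limb identity genes tested, 1 was called higher and 1 lower, while of all 12954 genes tested 16.6% were called higher and 17.0% lower (33.7% in all). Of 8 genes tested from an eye muscle list, 3 were called higher (Myh15, Fst and Tbx1) and 0 lower, with a median of 0.31. Tbx1 rose by 0.41 ± 0.09 with no overlap, but by 0.16 with offsets (adjusted p = 0.13, not called). Its means were 44.2 CPM in C57BL/6 and 58.2 CPM in albino limb muscle, against 3.97 and 6.75 CPM in eye muscle. Tbx1 therefore did not mark eye muscle in these libraries.

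Some libraries stood apart within the albino group. Totals ran from 18996461 to 27965207 counts over the 8 libraries. Rn45s took 0.203% to 0.483% of the counts in C57BL/6, 0.843% to 1.77% in the other 3 albino libraries and 10.6% in CN6 4. That library also held the most eye muscle myosin: Myh15 read 0.227, 0.0404, 1.47 and 13.7 CPM in albino muscle and 0.160, 0.422, 0.433 and 0.679 CPM in C57BL/6, against means of 1933 and 1057 CPM in pigmented and albino eye muscle. Myh15 was called higher (3.24 ± 1.16, adjusted p = 0.046), but its difference was -1.64 in the libraries labelled TA alone, and 0.30 without CN6 4 (adjusted p = 0.81).

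Snap25, a synaptic release protein abundant in brain, was detected in 3 albino libraries. It was at 0 in all 4 C57BL/6 libraries, which allows at most 0.107 to 0.130 CPM (3 counts, counting error only). It read 2.84, 0.970, 0 and 3.70 CPM in the albino libraries, against 2447 to 3936 CPM in the 16 brain libraries and 5.87 to 34.2 CPM in pigmented eye muscle. The 16 neuronal genes summed to 9.36 to 10.7 CPM in C57BL/6 and 10.5 to 21.9 CPM in the albino group. Of the 4 that could be tested, Stmn2, a growth cone protein, had the lowest adjusted p (0.54 ± 0.21, adjusted p = 0.07), above the threshold. The summed level of 12 astrocyte and oligodendrocyte genes overlapped, at 87.9 to 103 CPM and 81.1 to 116 CPM. Aqp4, a water channel, held means of 58.5 CPM in C57BL/6 and 44.7 CPM in albino muscle. For Mbp, which peripheral nerve also expresses, these were 20.6 and 30.6 CPM. As the sum was this high in C57BL/6 with Snap25 at 0, its overlap cannot measure brain content. The part of brain transcripts in the results below was not tested, and values of CN6 3, which held no Snap25, are given beside the others.

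The reassigned pair and the labelled pair of albino libraries differed in 1 of 12954 genes tested (0.00772%). That gene, Chac1, which degrades glutathione, read 173, 216, 62.1 and 50.5 CPM, so both CN6-labelled libraries lay below both TA-labelled ones. In C57BL/6 it read 103, 133, 112 and 124 CPM, between the pairs. Each pair therefore differed from C57BL/6 in its own direction: 0.69 for the labelled pair and -1.03 for the reassigned pair. Leaving out 1 library sets 1 against 2 and assumes that the lone library varies like the other groups. Such fits called 235 genes without CN6 4, 18 without CN6 3, 4 without TA 3 and 2 without TA 4.

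Tyr itself (chromosome 7, 87424771 to 87493512, minus strand, mm10) was at 0 in all 8 libraries, with a limit of 0.107 to 0.158 CPM from 3 counts per library, and the c-2J allele is a base change that need not alter the level, so Tyr could not check the labels in this tissue. Of 18 melanin and pigment granule genes, 7 could be tested. Of these 0 were called higher and 2 lower, against 16.6% and 17.0% of all genes. Rab27a, a GTPase that carries pigment granules and other secretory vesicles, fell from 5.07 ± 0.779 to 1.73 ± 0.493 CPM (-1.51 ± 0.22, adjusted p = 2.8e-04; SD, n = 4 here and below). The libraries read 4.72, 4.14, 5.63 and 5.79 CPM in C57BL/6 and 1.89, 2.06, 1.00 and 1.97 CPM in the albino group, with no overlap. Mitf, the melanocyte and macrophage transcription factor, was lower by a small margin (-0.27 ± 0.09, adjusted p = 0.037). It lost its call in 6 of the 8 fits that left out 1 library each, and with GC and length offsets (-0.16, adjusted p = 0.18).

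Among the smallest p-values were those of genes reported to vary between C57BL/6 substrains. Nnt, the mitochondrial enzyme that makes NADPH from the proton gradient, read 118, 125, 117 and 144 CPM in C57BL/6. It read 19.9, 23.5, 20.5 and 20 CPM in the albino libraries, all below every pigmented one (-2.57 ± 0.08, adjusted p = 8.2e-10). Wdfy1 (chromosome 1, 79702262 to 79776143, minus strand), an endosomal adaptor of innate immune signalling, read 28.2, 25.2, 24.6 and 30.3 CPM against 5.45, 5.38, 7.001 and 5.42 CPM (-2.21 ± 0.11, adjusted p = 6.5e-08). The labelled and the reassigned pair gave -2.57 and -2.59 for Nnt and -2.35 and -2.09 for Wdfy1.

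The other 2 called genes of that list were higher in the albino libraries. Entpd4 (chromosome 14, 69337174 to 69367270, plus strand), a nucleotidase of the Golgi and lysosomes, rose from 79.3 ± 6.08 to 150.1 ± 18.1 CPM (0.93 ± 0.07, adjusted p = 4.5e-06), but it has a near-identical copy with which reads could have been shared. Ide (chromosome 19, 37268743 to 37337852, minus strand), the insulin-degrading enzyme, rose from 156 ± 9.85 to 243 ± 21.1 CPM (0.65 ± 0.07, adjusted p = 5.6e-05). Cyfip2 (0.84), Nalcn (1.80) and Snap29 (-0.20) were not called. The list was chosen with these results known, and 2 lower and 2 higher calls among 7 tested members are a description. Of the genes near Tyr, 11 of 22 tested within 5 Mb were called (50%), 27 of 89 within 10 Mb (30.3%) and 65 of 189 within 20 Mb (34.4%), against 33.7% of all genes.

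All 8 libraries carried Y-linked transcripts, and Xist was at or below 0.080 CPM. Uty, a Y-linked demethylase, fell from 16.6 ± 1.38 to 10.6 ± 0.559 CPM (-0.63 ± 0.10, adjusted p = 4.5e-04). Ddx3y was also called lower (-0.37 ± 0.11, adjusted p = 0.018), but read -0.08 once GC content and gene length were adjusted for (adjusted p = 0.58). Kdm5d (-0.13 ± 0.09) and Eif2s3y (-0.04 ± 0.12) were not called.

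Over all genes, 4361 of 12954 were called (33.7%): 2154 higher (16.6%) and 2207 lower (17.0%) in albino muscle. A change of at least 2-fold was called in 637 genes (4.92%), and these were mostly higher, 535 (4.13%) against 102 (0.787%). The CPM ranges of the 2 genotypes did not overlap in 3866 genes (29.8%), with the albino libraries higher in 12.5% and lower in 17.3% of all genes. The median log2 fold change of all genes was 0.02. The labelled pair alone gave 4130 calls of 13293 (31.1%), and the reassigned pair alone gave 2677 of 13251 (20.2%), 9.52% higher and 10.7% lower. Counts of list members in the reassigned pair, given below, stand beside these smaller shares.

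**Figure D2:**
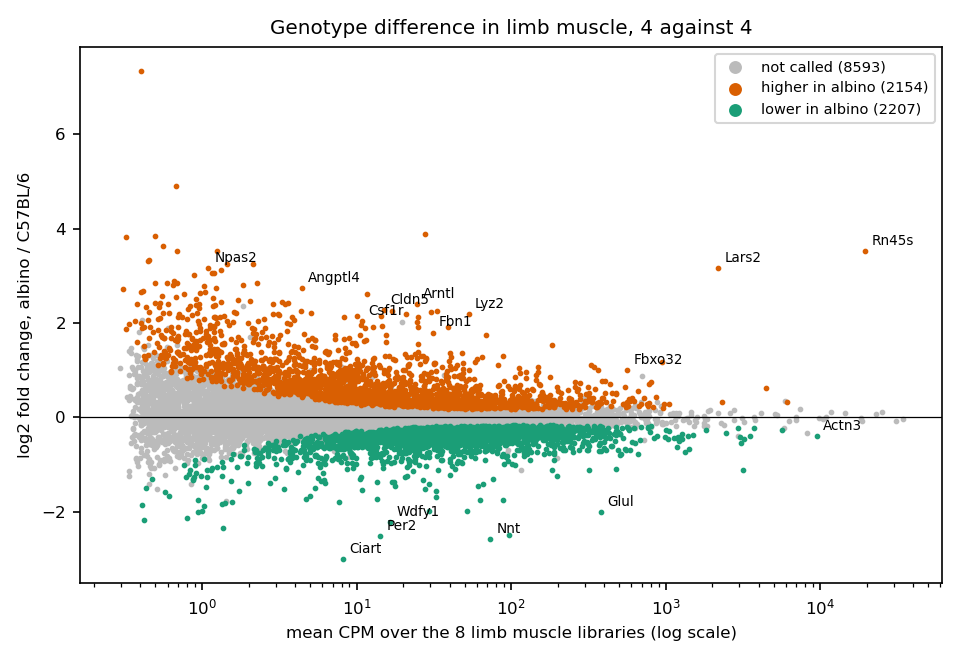
Log2 fold change, albino over C57BL/6, against the mean CPM of the 8 limb muscle libraries (log axis), 1 point a gene, coloured by its call. Among the genes marked by name, Ciart, Nnt, Per2 and Wdfy1 lie low, at -3.00, -2.57, -2.52 and -2.21, while Npas2, Cldn5, Arntl and Lyz2 lie high, at 3.16, 2.27, 2.40 and 2.19.

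Small changes followed base composition. Among 4 equal groups of genes by GC content, the median log2 fold change in the lowest was -0.21, with 194 called higher and 1154 lower. It was -0.04 and 0.08 in the middle groups and 0.20 in the highest, where 937 were called higher and 142 lower. Medians fell with exon length from 0.14 to -0.09. With offsets for both, 3722 genes were called and 35.4% of them were higher, against 49.4% without. With upper quartile scaling 60.3% of 4406 calls were higher. Values with these offsets are therefore given below for some lists and genes, though not for all.

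**Figure D3:**
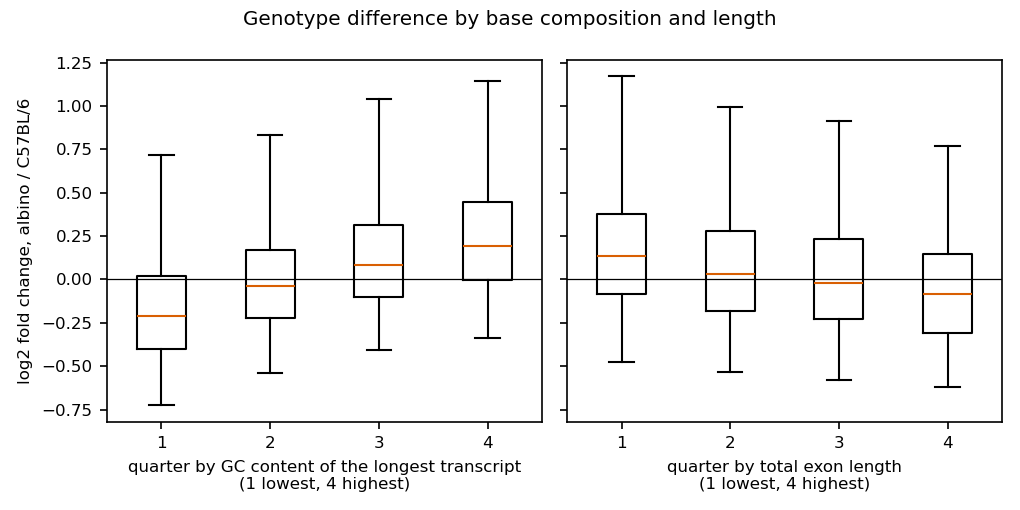
Log2 fold change, albino over C57BL/6, of all tested genes in 4 equal groups by GC content (left) and by exon length (right). Boxes run between the quartiles with the median as a coloured line, and whiskers enclose all but the outermost genes at each end. Medians climb from -0.21 to 0.20 with GC content and fall from 0.14 to -0.09 with length.

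The circadian clock genes moved in both directions. Arntl (chromosome 7, 113207465 to 113314126, plus strand), which encodes BMAL1, the activating partner of CLOCK, read 8.32, 6.94, 8.66 and 7.55 CPM in C57BL/6. In the albino libraries it read 42.0, 37.2, 46.8 and 38.5 CPM, with no overlap (2.40 ± 0.10, adjusted p = 2.3e-08). Npas2, a relative of Clock that pairs with BMAL1, read 0.240, 0.0767, 0.433 and 0.143 CPM in C57BL/6 and 1.51, 2.30, 1.84 and 2.19 CPM in albino muscle. So low in C57BL/6, it could pass the filter through the albino libraries, and its fold change is given as a description (3.16). Clock itself was not called (0.17 ± 0.07, adjusted p = 0.091). It was called under upper quartile scaling and with GC and length offsets, at 0.22 and 0.40.

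Most repressors that these activators drive were lower. Of 9 tested, 7 fell, 1 rose (Nr1d1) and Bhlhe40 was not called (-0.27), with a median of -1.12. Over all genes 17.0% were called lower and 16.6% higher. Per2 read 21.2, 23.9, 25.2 and 27.1 CPM in C57BL/6 and 3.97, 5.82, 2.95 and 3.95 CPM in the albino group (-2.52 ± 0.16, adjusted p = 1.0e-06). Ciart (Chrono, a repressor of BMAL1 and CLOCK) read 11.9, 15.5, 14.8 and 16.3 CPM against 1.51, 3.15, 1.26 and 1.26 CPM (-3.00 ± 0.23, adjusted p = 4.0e-06). No albino library reached the lowest C57BL/6 library for either gene. Per1 (-1.75 ± 0.36), Per3 (-1.33 ± 0.10) and Nr1d2 (-1.12 ± 0.08), which encodes REV-ERB beta, fell as well (adjusted p = 0.0024, 4.3e-06 and 1.6e-06).

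Nr1d1, which encodes REV-ERB alpha, a repressor of Arntl, rose. It read 97.5, 101, 102 and 106 CPM in C57BL/6 and 202, 189, 210.2 and 149.7 CPM in the albino libraries (0.89 ± 0.08, adjusted p = 1.1e-05). The gene overlaps Thra on the opposite strand, and no strand setting of the counting is given in the sources used here, so reads of the 2 genes cannot be told apart where they overlap. Nfil3, a repressor of D-box genes, was called lower (-0.51 ± 0.18, adjusted p = 0.045), but not in 6 of the 8 fits without 1 library.

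Clock output genes were mostly lower, 6 of 8 tested against 17.0% of all genes, with 1 higher and a median of -1.13. Dbp, a D-box activator, read 47.0, 51.7, 43.99 and 53.3 CPM in C57BL/6 and 17.3, 19.2, 12.5 and 16.7 CPM in the albino group (-1.56 ± 0.11, adjusted p = 2.8e-06). Its relative Hlf fell from 32.1 ± 1.51 to 14.4 ± 1.67 CPM (-1.14 ± 0.08, adjusted p = 2.8e-06). Usp2, a deubiquitinase under clock control, fell from 278 ± 22.6 to 117 ± 22.7 CPM (-1.24 ± 0.11), and Wee1, a kinase that delays mitosis, from 7.64 ± 1.37 to 2.37 ± 0.713 CPM (-1.67 ± 0.20; adjusted p = 1.2e-05 and 6.7e-05). The counts of lower repressors and outputs were the same in the labelled and the reassigned pair, 7 and 7 repressors and 6 and 6 outputs, with shared C57BL/6 libraries.

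Promoter sequences show the elements through which the clock proteins are known to act. From 250 bases before to 50 after each start, RefSeq promoters (GRCm38.p6) were searched on both strands for the E-box CACGTG, bound by BMAL1 with CLOCK or NPAS2, the D-box TTATGTAA, bound by DBP and HLF, and the RORE core TAGGTCA, bound by REV-ERB proteins. Of 32851 mouse promoters, 7.15% hold the E-box, 0.938% the D-box and 2.61% the RORE core. Counted by gene, these are 8.09%, 1.11% and 2.97% of 27025 genes. Of 19 clock genes matched by symbol, 6 hold an E-box, 1 a D-box and 3 a RORE core. The 3 promoters below are those of a fallen repressor with E-boxes, a fallen repressor with D-boxes and, from 1 of its annotated starts, the risen activator, with each match in capitals.
Ciart, chr3:95882179-95882478, minus strand: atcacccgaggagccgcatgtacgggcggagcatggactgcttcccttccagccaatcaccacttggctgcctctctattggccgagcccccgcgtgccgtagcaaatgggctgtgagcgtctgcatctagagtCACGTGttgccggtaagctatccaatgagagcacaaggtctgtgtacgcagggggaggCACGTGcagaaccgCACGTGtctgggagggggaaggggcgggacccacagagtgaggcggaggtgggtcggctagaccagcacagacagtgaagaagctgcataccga
Per3, chr4:151044616-151044915, minus strand: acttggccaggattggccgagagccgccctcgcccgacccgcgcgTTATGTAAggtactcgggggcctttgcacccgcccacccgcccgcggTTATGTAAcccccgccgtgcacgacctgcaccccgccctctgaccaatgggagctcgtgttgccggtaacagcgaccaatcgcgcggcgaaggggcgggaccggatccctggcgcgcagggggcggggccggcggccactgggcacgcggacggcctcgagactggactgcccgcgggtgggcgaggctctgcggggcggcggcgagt
Arntl, chr7:113207261-113207560, plus strand: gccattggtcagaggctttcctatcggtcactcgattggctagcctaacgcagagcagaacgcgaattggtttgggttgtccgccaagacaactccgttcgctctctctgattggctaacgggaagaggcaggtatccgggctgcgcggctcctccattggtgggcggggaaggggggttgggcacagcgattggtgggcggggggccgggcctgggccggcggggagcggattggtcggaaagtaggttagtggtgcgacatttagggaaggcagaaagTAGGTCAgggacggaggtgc
Ciart holds 3 E-boxes, 116, 58 and 44 bases before its start. Per3 holds 2 D-boxes, 205 and 158 bases before its start, and Arntl a RORE core 31 bases after. Of the 12 clock genes called lower that had a promoter, 4 hold an E-box, 1 a D-box and 1 a RORE core, against 0, 0 and 2 of the 4 called higher. A match is a description of the letters in these windows.

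Macrophage genes were higher in albino muscle. Of 20 tested, 18 rose and 0 fell, against 16.6% and 17.0% of all genes, with a median of 1.77. Their sum was 62.5 to 73.8 CPM in C57BL/6 and 201 to 254 CPM in the albino libraries. Lyz2, the macrophage lysozyme, read 19.7, 18.03, 20.4 and 19.4 CPM against 96.7, 77.0, 83.5 and 91.2 CPM (2.19 ± 0.10, adjusted p = 2.3e-08). Csf1r, the receptor for the growth factor on which macrophages depend, read 4.44, 5.37, 3.46 and 3.79 CPM against 17.3, 17.2, 15.2 and 19.5 CPM (2.04 ± 0.15, adjusted p = 2.7e-06). For both genes all 4 albino libraries, including both reassigned ones, lay above all C57BL/6 libraries. Brain microglia express many of these genes too, and their part in these values was not tested. CN6 3, with Snap25 at 0, read 83.5 CPM of Lyz2 and 15.2 CPM of Csf1r. In whole muscle, more cells of a type and more RNA per cell cannot be told apart.

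The signalling adaptor Tyrobp rose from 1.15 ± 0.282 to 6.10 ± 0.889 CPM (2.42 ± 0.21, adjusted p = 1.1e-05). C1qa, a chain of the complement starter C1q that macrophages make, rose from 4.90 ± 1.21 to 16.2 ± 2.20 CPM (1.75 ± 0.17, adjusted p = 2.1e-05). The called count was 18 in the labelled pair alone and 17 in the reassigned pair alone, with medians of 1.76 and 1.83. In every fit that left out 1 of the 8 libraries it was 18. The 2 members that did not pass were Cd163 (0.26), a haemoglobin scavenger receptor, and Cd86 (0.72), a T cell costimulator.

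Antigen presentation genes of class II rose alongside, 6 of 7 against 16.6% of all genes, with a median of 2.03. Cd74, the invariant chain, read 17.2, 18.6, 14.6 and 15.9 CPM in C57BL/6 and 68.3, 50.4, 67.6 and 61.5 CPM in albino muscle (1.92 ± 0.11, adjusted p = 3.6e-07). The class II chains H2-Aa, H2-Ab1 and H2-Eb1 rose by 2.03 ± 0.13, 2.18 ± 0.15 and 2.24 ± 0.13 (adjusted p = 1.0e-06, 2.2e-06 and 3.6e-07). None of these ranges overlapped between genotypes. Ciita, the master regulator of class II genes, was not called, at 0.51.

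Complement genes were higher in 10 of 11 cases, against 16.6% of all genes, median 1.14. C3, the central component, read 32.8, 33.4, 29.0 and 32.6 CPM in C57BL/6 and 115, 111, 67.6 and 128 CPM in the albino group, where CN6 3 was the lowest (1.74 ± 0.16, adjusted p = 1.4e-05). The C1 inhibitor Serping1 rose from 52.3 ± 4.54 to 112 ± 19.9 CPM (1.12 ± 0.12), and properdin, Cfp, from 1.85 ± 0.361 to 5.39 ± 0.942 CPM (1.56 ± 0.20; adjusted p = 4.2e-05 and 1.3e-04). The membrane regulator Cd55 was not called (0.02).

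Genes of other leukocytes were near the floor. Of 12 lymphocyte and neutrophil genes 2 passed the filter on low counts, the neutrophil calprotectin subunits S100a8 and S100a9. S100a8 read 0.0800, 0.0767, 0.0866 and 0 CPM in C57BL/6 and 0.719, 1.21, 1.26 and 0.504 CPM in albino muscle. S100a9 read 0, 0.153, 0 and 0 CPM against 1.74, 1.78, 1.05 and 0.672 CPM. No C57BL/6 library held more than 4 counts of either, so they passed the filter through the albino libraries, and these levels are a description with no test. The T and B cell genes of the list stayed at or below 0.579 CPM in each of the 8 libraries.

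Another 6 genes among the largest rises lay below 0.73 CPM in every C57BL/6 library. A gene so low can pass the filter through the albino libraries alone, so only levels are given. Ccl8, a monocyte chemokine, read 0.0767 to 0.433 CPM in C57BL/6 and 0.809 to 4.09 CPM in albino muscle. Mmp9, a matrix protease of leukocytes, read 0.0866 to 0.614 CPM and 1.44 to 3.03 CPM. Cd209f, a lectin, read 0.422 to 0.720 and 2.51 to 5.67 CPM, and Rac2, a haematopoietic GTPase, 0.0767 to 0.480 and 1.68 to 2.47 CPM. For Wfdc17 the ranges were 0.215 to 0.320 and 1.29 to 3.63 CPM, and for Slamf9 0 to 0.384 and 1.13 to 2.74 CPM. The ranges did not overlap for any of the 6.

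Interferon response genes rose in 9 of 20 tested cases and fell in 0, against 16.6% and 17.0% of all genes, with a median of 0.49. With GC and length offsets 6 rose and 0 fell, with a median of 0.36. The class I heavy chain H2-D1, whose reads may be shared with its close relatives, rose from 26.0 ± 2.47 to 44.3 ± 6.06 CPM (0.78 ± 0.09, adjusted p = 6.3e-05). Its partner B2m rose from 84.0 ± 8.31 to 124 ± 21.9 CPM (0.57 ± 0.10) and the antiviral tether Bst2 from 6.92 ± 0.848 to 13.4 ± 3.83 CPM (0.96 ± 0.17; adjusted p = 0.001 and 8.7e-04). Typical antiviral genes such as Ifit1 (-0.28) and Rsad2 (0.28) were not called.

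**Figure D4:**
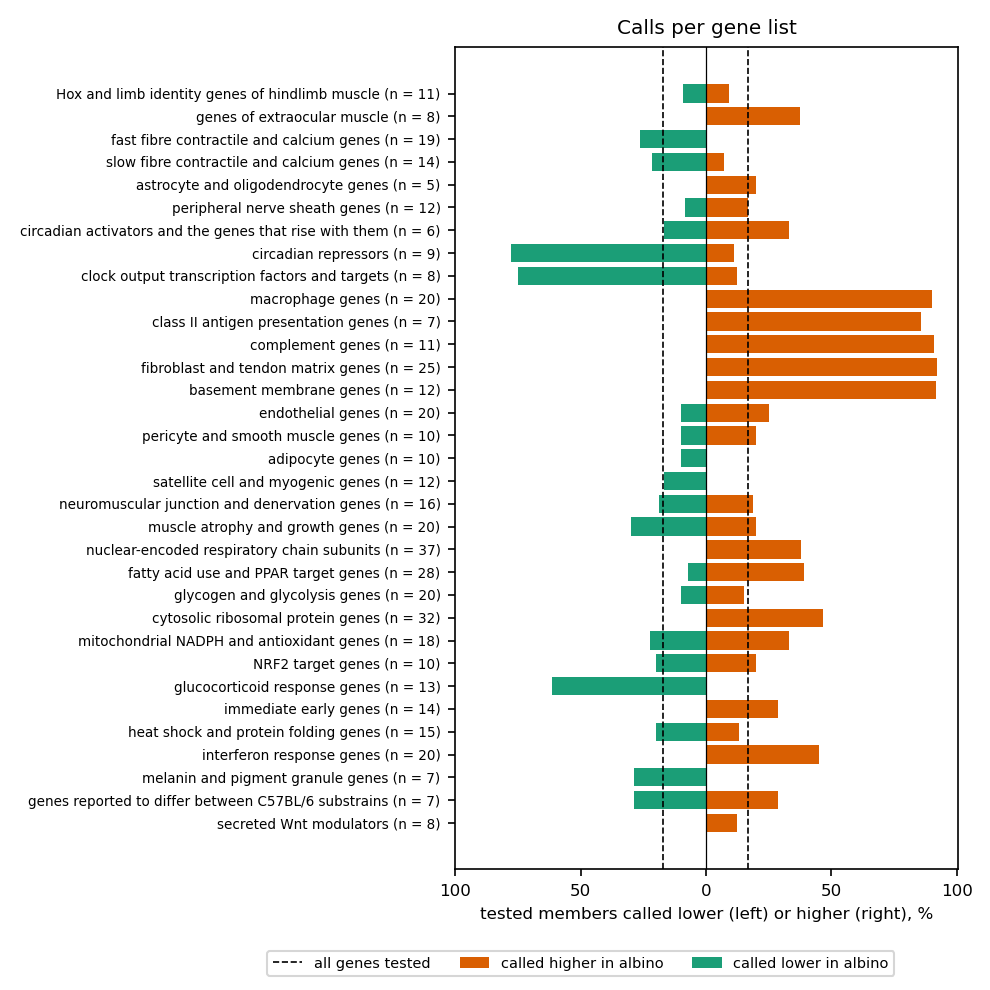
Share of the tested members of each gene list called lower (left) or higher (right) in albino limb muscle, in percent, for lists with at least 5 tested members. Dashed lines mark the shares over all genes, 17.0% lower and 16.6% higher, and the macrophage, class II, complement, matrix and basement membrane bars reach far past them on the right.

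Connective tissue genes were higher. Of 25 fibroblast and tendon matrix genes 23 rose and 0 fell, against 16.6% and 17.0% of all genes, with a median of 1.06. They summed to 946 to 1339.9 CPM in C57BL/6 and 1563 to 2539 CPM in albino muscle. Fbn1, the microfibril protein fibrillin, read 14.8, 15.99, 11.0 and 14.6 CPM against 53.0, 49.7, 30.6 and 58.8 CPM (1.79 ± 0.18, adjusted p = 2.5e-05). Dcn, the collagen-binding proteoglycan decorin, read 211, 274, 243 and 263 CPM against 549, 485, 409 and 507 CPM (0.99 ± 0.10, adjusted p = 3.2e-05). In both cases the genotypes did not overlap and CN6 3 was the lowest albino library.

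Dpt, dermatopontin, rose from 22.8 ± 2.94 to 57.5 ± 9.22 CPM (1.35 ± 0.12, adjusted p = 1.3e-05), and Col5a2, a fibril-forming collagen, from 16.8 ± 1.75 to 39.8 ± 6.39 CPM (1.27 ± 0.12, adjusted p = 2.0e-05). Fibril collagens Col1a1 (1.27) and Col3a1 (1.52), the fibroblast receptor Pdgfra (1.21) and the tendon genes Tnmd (1.08) and Fmod (1.29) were also called. Postn (0.16) and the collagen cross-linking enzyme Lox (0.48) were not. The labelled pair alone gave 23 calls (median 1.13) and the reassigned pair 16 (median 0.94).

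Basement membrane genes rose in 11 of 12 cases, against 16.6% of all genes, median 0.72. Col4a1, a chain of the main network collagen, read 87.6, 104, 67.0 and 86.7 CPM in C57BL/6 and 194, 183, 124 and 160.1 CPM in albino muscle (0.96 ± 0.14, adjusted p = 2.3e-04). Col15a1 rose from 17.0 ± 4.15 to 38.7 ± 9.28 CPM (1.20 ± 0.18, adjusted p = 3.0e-04). Agrn, the agrin of nerve-muscle contacts, was not called (0.07). In the reassigned pair alone the count was 6.

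Dkk3, a secreted protein of the Dickkopf family of Wnt modulators, varied widely among the albino libraries. It read 10.7, 8.13, 11.9 and 15.1 CPM in C57BL/6 and 72.5, 96.4, 18.4 and 31.1 CPM in albino muscle (2.26 ± 0.39, adjusted p = 9.0e-04). The labelled libraries were higher than the reassigned ones, with log2 fold changes of 2.85 and 1.18 for the 2 pairs, and all 4 lay above C57BL/6. It was the only call among 8 tested secreted Wnt modulators, while 16.6% of all genes were called higher.

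Of 20 endothelial genes 5 rose and 2 fell, with a median of 0.09, which in all is about the 33.7% called over all genes. Those that rose include Cldn5, the tight junction claudin of endothelium, at 6.72, 5.72, 3.81 and 4.68 CPM in C57BL/6 and 20.2, 24.5, 19.9 and 34.3 CPM in albino muscle (2.27 ± 0.21, adjusted p = 1.4e-05). Egfl7, a secreted vessel factor, rose from 25.7 ± 1.68 to 54.4 ± 7.95 CPM (1.09 ± 0.09), Kdr, the VEGF receptor, from 33.8 ± 5.46 to 63.9 ± 4.05 CPM (0.94 ± 0.11), and Cd34 from 46.1 ± 6.48 to 72.3 ± 7.73 CPM (0.67 ± 0.10; adjusted p = 9.9e-06, 5.3e-05 and 3.9e-04). The general endothelial genes Pecam1 (-0.0046) and Cdh5 (0.09) were not called. The other VEGF receptor, Flt1, was called lower (-0.46).

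Calls among genes of other resident cells are given beside 16.6% higher and 17.0% lower over all genes. Of 10 pericyte and smooth muscle genes 2 rose and 1 fell, and with GC and length offsets 0 rose and 2 fell. The pericyte receptor Pdgfrb (0.37 ± 0.11, adjusted p = 0.017) and the intermediate filament Des (-0.23 ± 0.07, adjusted p = 0.022) each lost the call in 3 of the 8 fits without 1 library. With offsets Pdgfrb was not called (0.19, adjusted p = 0.16). Of 10 adipocyte genes 1 fell, Plin4, a lipid droplet coat (-0.65 ± 0.17, adjusted p = 0.011), and of 12 satellite cell and myogenic genes 2 fell, Des and the myogenic factor Myf6 (-0.32 ± 0.09, adjusted p = 0.013). Des stands in the pericyte list as well, and which cells of whole muscle gave the Des and Myf6 transcripts was not tested. Pax7, the satellite cell marker, was not called (-0.36).

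Mbp, a myelin protein of both peripheral nerve and brain, read 17.6, 20.3, 17.2 and 27.2 CPM in C57BL/6 and 34.9, 36.2, 21.0 and 30.2 CPM in albino muscle (0.59 ± 0.17, adjusted p = 0.016), overlapping, and lost the call in 3 of the 8 fits without 1 library. Of 5 astrocyte and oligodendrocyte genes tested, Mbp was the 1 called, and fits that left out 1 library called 0 to 4 higher. Red cell globins were at 0 or below 0.04 CPM in all 8 libraries. The 6 red cell genes listed, globins included, summed to 2.79 to 27.7 CPM in C57BL/6 and 2.37 to 22.1 CPM in the albino group. Of 4 skin genes tested, the keratin gene Krt10 had the lowest adjusted p (0.43 ± 0.28, adjusted p = 0.26), and Krt15 was highest in TA 4 and CN6 4, at 0, 1.86, 0.0526 and 1.93 CPM.

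Of 19 fast fibre genes 0 rose and 5 fell, against 16.6% and 17.0% of all genes. With GC and length offsets 0 rose and 11 fell. The median was -0.04, and -0.29 with offsets, where that of all genes was -0.055. Without offsets none of the fast myosins Myh1 (-0.07), Myh2 (0.11) and Myh4 (-0.04) was called. Actn3, the fast fibre alpha-actinin, read 11197, 9806, 10978 and 11385 CPM in C57BL/6 and 8104, 7539.7, 9529.9 and 7373 CPM in albino muscle, with no overlap (-0.40 ± 0.09, adjusted p = 0.0053). The labelled pair gave -0.50 and the reassigned pair -0.32, the latter not called (adjusted p = 0.067). The other calls were genes of calcium release, among them Cacna1s, the voltage sensor, from 1320.3 ± 76.0 to 961 ± 65.2 CPM (-0.45 ± 0.06), and Casq1, the calcium store protein, from 3989 ± 195 to 3037 ± 312 CPM (-0.38 ± 0.08; adjusted p = 2.1e-04 and 0.0022).

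Slow fibre genes gave 1 higher and 3 lower calls of 14, against 16.6% and 17.0% of all genes. Pln, phospholamban, the inhibitor of the slow calcium pump, fell from 4.68 ± 0.672 to 2.50 ± 0.563 CPM (-0.88 ± 0.20, adjusted p = 0.0047). Sarcolipin, Sln, a related pump regulator, was called higher (0.85 ± 0.26, adjusted p = 0.025) and Myoz2, a Z-disc protein, lower (-0.67 ± 0.20, adjusted p = 0.019), but they lost the call in 4 of the 8 and 2 of the 8 fits without 1 library. The slow myosin Myh7 was not called (-0.50), nor was Myoz2 once GC and length offsets were used (-0.49, adjusted p = 0.09).

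Of 16 neuromuscular junction and denervation genes 3 were called higher and 3 lower, close to the 16.6% and 17.0% over all genes. With GC and length offsets 2 were called higher and 5 lower. Hdac4, a deacetylase that denervation is known to raise, rose from 17.97 ± 2.00 to 27.1 ± 2.97 CPM (0.61 ± 0.10, adjusted p = 5.2e-04), and Ankrd1, a stress-responsive ankyrin repeat protein, from 10.7 ± 3.29 to 21.2 ± 4.93 CPM (1.01 ± 0.21, adjusted p = 0.0026). Rapsn, which clusters acetylcholine receptors, rose by 0.45 ± 0.08 (adjusted p = 8.3e-04), but by 0.11 with GC and length offsets (adjusted p = 0.25). The receptor subunit Chrna1 (-0.37) and its kinase Musk (-0.49) fell, and the count of lower genes was 0 in the reassigned pair alone.

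Of 20 growth and atrophy genes 4 were called higher and 6 lower, against 16.6% and 17.0% of all genes. Fbxo32, the atrophy ubiquitin ligase atrogin-1, read 318, 306, 497 and 379 CPM in C57BL/6 and 799, 879, 684 and 646 CPM in albino muscle, with no overlap (1.01 ± 0.14, adjusted p = 2.3e-04). Its partner in atrophy Trim63 rose too (0.60), as did the autophagy gene Gabarapl1 (0.39 ± 0.07, adjusted p = 0.0018), which was not called with GC and length offsets (0.16).

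Mstn, myostatin, which limits muscle mass, read 51.6, 54.4, 72.9 and 71.4 CPM in C57BL/6 and 30.2, 42.5, 28.01 and 29.2 CPM in albino muscle (-0.93 ± 0.14, adjusted p = 3.4e-04). Its antagonist Fst, follistatin, rose from 1.76 ± 0.498 to 3.53 ± 0.504 CPM (1.02 ± 0.23, adjusted p = 0.0039). The transcription factor Foxo1, which drives Fbxo32, fell (-0.70). The groups did not overlap for Mstn or Fst.

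Glucocorticoid response genes fell in 8 of 13 cases and rose in 0, against 17.0% and 16.6% of all genes, with a median of -0.60. Per1 and Tsc22d3 also stand in the clock lists. Tsc22d3, the glucocorticoid-induced leucine zipper, read 424, 389.9, 524 and 407 CPM in C57BL/6 and 183, 285, 123 and 203 CPM in albino muscle (-1.12 ± 0.19, adjusted p = 7.9e-04). Pik3r1, a regulatory subunit of PI3 kinase, fell from 54.3 ± 12.2 to 30.4 ± 1.27 CPM (-0.82 ± 0.14), and the transcription factor Cebpd from 26.1 ± 1.74 to 9.46 ± 5.65 CPM (-1.45 ± 0.27; adjusted p = 7.9e-04 and 0.0015). Ddit4, an inhibitor of mTOR signalling, read 88.8, 60.9, 104 and 75.6 CPM against 10.3, 58.5, 5.32 and 8.99 CPM (-1.98 ± 0.53, adjusted p = 0.012). The library TA 4 lay near C57BL/6 for Ddit4, and the reassigned pair was lower than the labelled pair, at -3.45 against -1.30. The metallothioneins Mt1 (-0.36) and Mt2 (-0.06) were not called.

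Among the largest falls outside the lists were Glul and Arrdc2, both well expressed in muscle. Glul, glutamine synthetase, read 453, 532, 834 and 639 CPM in C57BL/6 and 159, 239, 80.4 and 132 CPM in albino muscle (-2.01 ± 0.26, adjusted p = 1.5e-04). Arrdc2, an arrestin-domain protein, read 149.6, 117, 244 and 145 CPM against 31.0, 62.2, 9.84 and 13.7 CPM (-2.49 ± 0.43, adjusted p = 8.4e-04). In each the genotypes did not overlap, and the reassigned pair was the lower, at -2.47 and -3.74 against -1.67 and -1.86 in the labelled pair.

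Another 4 genes were lower at a low level. Doc2b, a calcium sensor of vesicle release, read 1.61 to 3.81 CPM in C57BL/6 and 0.211 to 0.681 CPM in albino muscle. Hif3a, a hypoxia-inducible factor that is a known glucocorticoid target, read 1.38 to 1.75 CPM and 0.105 to 0.809 CPM. Zxda, a zinc finger gene, fell from 2.11 ± 0.683 to 0.587 ± 0.258 CPM. Cfap43, a cilia and flagella protein, fell from 2.21 ± 0.139 to 0.606 ± 0.336 CPM. Genes so low in albino muscle can pass the filter through the C57BL/6 libraries alone. These levels are therefore a description with no test. None of the 4 genes overlapped between genotypes, which was a condition of their choice.

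**Figure D5:**
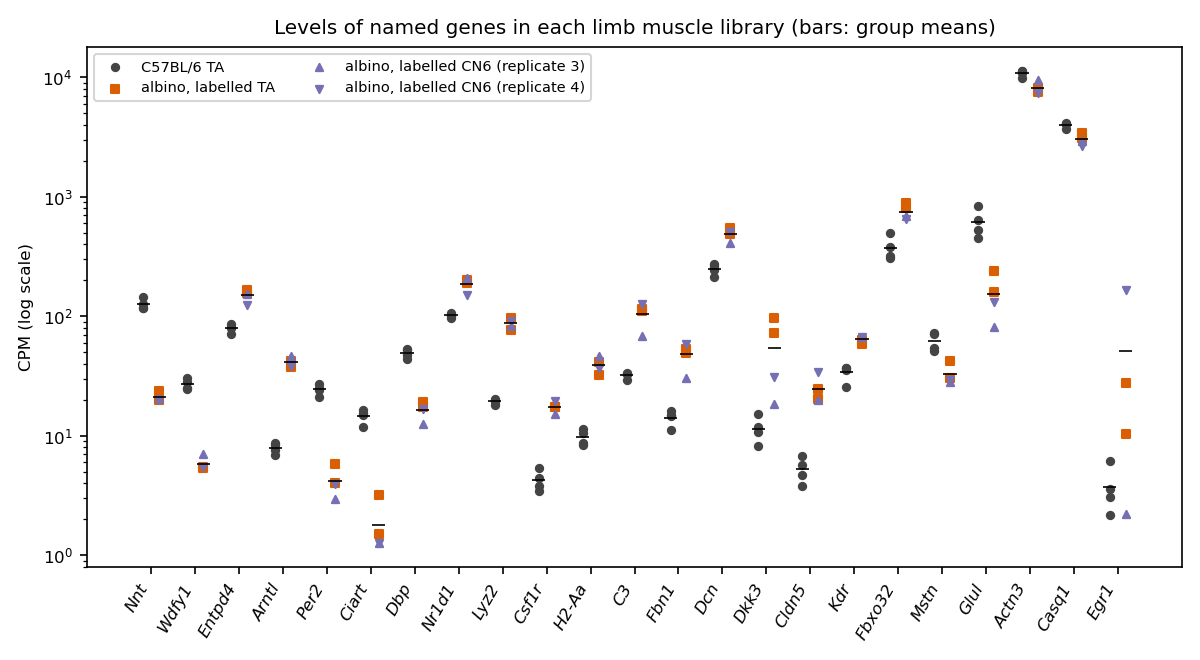
CPM (log axis) of named genes in each limb muscle library, C57BL/6 as circles, labelled albino as squares, reassigned albino as triangles, with bars at the group means. Nnt, Wdfy1, Per2, Ciart and Glul lie lower and Arntl, Lyz2, Csf1r and Fbn1 higher in all 4 albino libraries, while Egr1 spreads from 2.21 to 165 CPM among them.

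Fatty acid genes rose in 11 of 28 cases and fell in 2, against 16.6% and 17.0% of all genes, with a median of 0.25. Angptl4, an inhibitor of lipoprotein lipase and a PPAR target, read 0.640, 1.38, 1.30 and 1.29 CPM in C57BL/6 and 4.88, 11.6, 8.42 and 5.84 CPM in albino muscle (2.73 ± 0.29, adjusted p = 3.3e-05). Acot2, a mitochondrial thioesterase, rose from 5.37 ± 1.09 to 10.7 ± 1.30 CPM (1.01 ± 0.16), Fabp3, the muscle fatty acid binding protein, from 284 ± 34.4 to 486 ± 153 CPM (0.78 ± 0.16), and Eci1, an isomerase of beta-oxidation, from 103 ± 6.96 to 152 ± 20.5 CPM (0.58 ± 0.08; adjusted p = 4.0e-04, 0.0028 and 1.6e-04). The PPAR target Pdk4 was not called (0.88). In the reassigned pair alone 6 were called higher, and with GC and length offsets 9.

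Respiratory chain and ribosomal protein genes were called higher by small margins that changed with the offsets, which adjust GC content and length together. Of 37 respiratory chain subunits 14 rose and 0 fell, against 16.6% and 17.0% of all genes, with a median of 0.22. With GC and length offsets 4 rose and 1 fell, and the median was 0.01. Cox8b, a cytochrome oxidase subunit, rose from 392 ± 22.7 to 561 ± 108 CPM (0.53 ± 0.10, adjusted p = 0.0014) and kept its call with offsets (0.23). Cyc1, cytochrome c1, rose by 0.38 ± 0.08 (adjusted p = 0.0037) and by 0.05 with offsets (adjusted p = 0.66). Without the C57BL/6 replicate 4 the count of higher genes was 9, and in the reassigned pair 6.

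For ribosomal protein genes too the calls changed with that setting. Of 32, many of which have processed copies in the genome that could share reads, 15 rose and 0 fell, median 0.21. Without offsets 16.6% of all genes were called higher and 17.0% lower. With the offsets 3 were called higher and 7 lower, median -0.01. That setting called 1318 of all 12954 genes higher and 2404 lower, with a median of -0.055. Rplp1, a stalk protein, read 230.4, 259, 248 and 255 CPM in C57BL/6 and 399, 335, 518 and 289 CPM in albino muscle (0.64 ± 0.13, with offsets 0.29). The higher count was 9 without the C57BL/6 replicate 1, 7 with the replicate number as a block and 6 in the reassigned pair. The albino libraries carry only the numbers 3 and 4. With the block, the genotype contrast therefore rests on C57BL/6 replicates 3 and 4 alone.

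Of 20 glycolytic genes 3 were called higher and 2 lower, against 16.6% and 17.0% of all genes, with a median of 0.00. Hk2, the first enzyme of glucose use, fell from 446 ± 24.3 to 293 ± 34.3 CPM (-0.59 ± 0.09, adjusted p = 3.9e-04), and Phka1, a subunit of the kinase that activates glycogen breakdown, from 1484 ± 104 to 1074 ± 107 CPM (-0.45 ± 0.09, adjusted p = 0.0021). Pfkfb3, which makes the activator of phosphofructokinase, read 163, 266, 176 and 291 CPM in C57BL/6 and 359, 681, 259 and 548 CPM in albino muscle (1.07 ± 0.26, adjusted p = 0.0068), with overlap. With offsets 7 were called lower and 2 higher.

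Around the low Nnt, the 18 mitochondrial NADPH and antioxidant genes gave 6 higher and 4 lower calls, Nnt among the latter. Over all genes 16.6% were called higher and 17.0% lower. Gpx1, a glutathione peroxidase, rose from 35.5 ± 1.35 to 55.3 ± 9.51 CPM (0.65 ± 0.09, adjusted p = 2.4e-04; with offsets 0.30). Prdx5, a peroxiredoxin, rose by 0.44 ± 0.08 (adjusted p = 0.0013), but by 0.15 with offsets (adjusted p = 0.17). The other mitochondrial NADPH source Idh2 (0.02) and the superoxide dismutase Sod2 (-0.07) were not called.

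Targets of the oxidative stress factor NRF2 gave 2 higher and 2 lower calls of 10, close to the shares over all genes, and 0 and 3 with offsets. Gstm1, a glutathione transferase, fell from 167 ± 6.39 to 117 ± 16.3 CPM (-0.50 ± 0.08, adjusted p = 3.7e-04). Hmox1, haem oxygenase, which macrophages also express, rose from 5.16 ± 1.05 to 8.48 ± 1.46 CPM (0.74 ± 0.18, adjusted p = 0.006; with offsets 0.49, adjusted p = 0.052). Nqo1, a classic target, was not called (0.10). Of 15 heat shock genes 2 rose and 3 fell, close to the 16.6% and 17.0% over all genes. The muscle chaperone Hspb7 rose from 194 ± 41.8 to 324 ± 58.4 CPM (0.75 ± 0.13, adjusted p = 0.0011).

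Immediate early genes were uneven among the albino libraries. Egr1, induced within minutes of stimulation, read 3.60, 2.15, 6.11 and 3.08 CPM in C57BL/6 and 10.3, 27.8, 2.21 and 165 CPM in albino muscle. CN6 4 held the most and CN6 3 less than 3 of the 4 C57BL/6 libraries. The test called Egr1 higher (3.88 ± 0.98, adjusted p = 0.0084), as it did Junb (2.61 ± 0.63, adjusted p = 0.0069) and Ier2 (2.13 ± 0.57, adjusted p = 0.011). Without CN6 4 these values were 1.83, 1.31 and 0.92. With the replicate number as a block none of the 3 was called, but that contrast rests on C57BL/6 replicates 3 and 4 alone. Of 14 tested, 4 rose, against 16.6% of all genes. The count was 8 without CN6 3 and 0 with the block, under which 1 fell. Rrad, a small GTPase, had its highest value in CN6 4 as well, at 0.908, 1.37, 2.11 and 8.36 CPM against 0.358 to 0.606 CPM in C57BL/6. So low in C57BL/6, Rrad could pass the filter through the albino libraries, and its log2 fold changes are a description. They were 2.79 with CN6 4 and 1.57 without it.

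Rn45s and Lars2 were highest in the same library. Rn45s read 17667, 8432, 11348 and 105605 CPM in albino muscle and 4096, 4833, 2028 and 2268 CPM in C57BL/6 (3.52 ± 0.72, adjusted p = 0.0025). Lars2, the mitochondrial leucyl-tRNA synthetase, read 1263, 706, 1304 and 12328 CPM against 608, 684, 262 and 299 CPM (3.16 ± 0.79, adjusted p = 0.008). Without CN6 4 these were 1.90 and 1.22. In C57BL/6 the replicates were ordered alike for both genes. Whether Lars2 shares reads with ribosomal RNA was not tested, so its values cannot be read as a change of the synthetase gene. Malat1, a nuclear RNA, was not called (-0.86). The nuclear RNA Neat1 fell from 645 ± 78.8 to 376 ± 100.1 CPM (-0.77 ± 0.14, adjusted p = 0.0014), with CN6 3 the highest albino library at 526 CPM. With CN6 4 left out 4262 genes were called over the whole table, and with Rn45s left out of the counts 4369.

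Where limb muscle differed from eye muscle was tested as the difference of the 2 genotype differences, over these 8 libraries and 8 eye muscle libraries, 4 pigmented and 4 albino. The latter 4 also include 2 reassigned by the same markers, from a CN3 label. This difference was called in 1988 of 15265 genes (13.0%), 1142 higher in limb muscle (7.48%) and 846 lower (5.54%). Without CN6 4 the count was 1333, and without CN6 3 it was 2469. With DESeq2's size factors the split was 1352 higher and 515 lower. Nnt fell more in limb muscle (difference -1.05 ± 0.12, adjusted p = 7.2e-05), and was lower in eye muscle as well (-1.54, adjusted p = 7.1e-09). For Wdfy1 (-0.15, adjusted p = 0.61) and Entpd4 (-0.33, adjusted p = 0.1) the difference between the muscles was not called.

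Most macrophage, complement and matrix genes had a higher genotype difference in limb than in eye muscle. The test called 18 of 20 macrophage, 9 of 11 complement, 25 of 25 matrix and 8 of 12 basement membrane genes higher in the limb and 0 lower, against 7.48% and 5.54% of all genes. For Csf1r the limb exceeded the eye difference by 2.25 ± 0.19 (adjusted p = 3.6e-06; eye muscle -0.22). For Lyz2 the excess was 1.76 ± 0.13 (adjusted p = 1.9e-06; eye muscle 0.42), and for C3 1.52 ± 0.22 (adjusted p = 3.3e-04; eye muscle 0.21). Dcn and Col5a2 were higher in albino limb muscle and lower in albino eye muscle, at -0.36 and -0.39 in the latter (excess 1.35 ± 0.14 and 1.64 ± 0.18, adjusted p = 3.2e-05 and 3.2e-05). Of 7 class II genes 5 were called higher in the limb. H2-Aa rose in both muscles, with an excess of 1.09 ± 0.22 in the limb (adjusted p = 0.0041; eye muscle 0.92).

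Of 9 clock repressors 5 had a called difference between the muscles, all higher in limb than in eye muscle, as had 4 of 8 output genes, with 1 lower. Over all genes these shares were 7.48% higher and 5.54% lower. Arntl rose more in eye muscle, 3.48 against 2.40 in the limb (difference -1.09 ± 0.20, adjusted p = 0.0024). Per2, Per3, Nr1d2, Dbp and Hlf fell more in eye muscle, by 1.00, 0.84, 0.74, 0.82 and 1.11 (adjusted p = 0.029, 0.017, 0.0028, 0.007 and 0.0015). Nfil3 was higher in albino eye muscle (1.16) and lower in the limb (difference -1.68 ± 0.24, adjusted p = 3.1e-04). Nr1d1 rose more in the limb (difference 0.59 ± 0.10, adjusted p = 0.0016). For Ciart, Per1, Npas2 and Usp2 the difference was not called (0.74, -0.08, 0.94 and -0.02, adjusted p = 0.18, 0.96, 0.16 and 0.98).

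Muscle genes with unlike differences in the 2 muscles included Hdac4 (limb 0.61, eye -0.70, adjusted p = 2.2e-04) and Ankrd1 (limb 1.01, eye -0.52, adjusted p = 0.0056). Fbxo32 rose in the limb and was not called in eye muscle (0.17; difference 0.83 ± 0.19, adjusted p = 0.0085). Rab27a fell in the limb and rose in eye muscle (0.85; difference -2.37 ± 0.23, adjusted p = 1.3e-05). Cyp4f39, a fatty acid hydroxylase, and Amhr2, the anti-Müllerian hormone receptor, rose by 2.38 and 2.42 in eye muscle against 0.50 and 0.25 in the limb (adjusted p of the difference = 0.038 and 0.012). Hoxc10 also entered this set (-3.93 ± 0.74, adjusted p = 0.0028), and here the albino eye muscle libraries held 0.185 to 0.848 CPM of it and the pigmented ones at most 0.0918.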

How the data were processed

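Total RNA of muscle and of oculomotor neuron samples was sequenced, and the authors deposited 1 table of raw counts per gene symbol. Per the submitters' processing notes, Trimmomatic 0.33, FastQC, HISAT2 2.1.0, featureCounts, edgeR and the mm10 genome were used. The annotation, the strand setting and any filter are not given in the sources used here. Of 24421 symbols, 95.5% matched GENCODE M21. In 27 rows the symbol reads as a date, and these rows take at most 0.309% of a library's counts.

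CPM were counts over the deposited library totals, of 18996461 to 27965207 in the 8 limb muscle libraries, and intervals and floors (3 counts) cover counting error only. Ckm and Myh13 chose the libraries and are left out of all counts of called genes. Genotypes were compared with edgeR 4.0.16 in R 4.3.3: TMM factors, filterByExpr, the quasi-likelihood test, two-sided, Benjamini-Hochberg adjustment over all genes tested and a threshold of 0.05. Limb and eye muscle were compared through an interaction term over 16 libraries. Alternatives were other scalings and filters, DESeq2 1.42.0, limma 3.58.1, GC and length offsets, a replicate block, the groups as labelled, each pair of albino libraries alone and leaving out each library. The scripts were tested on simulated data. Named genes come from the 12 largest called changes in each direction (mean of at least 1 CPM, no overlap), the 4 members of each list with the smallest adjusted p, the 5 largest per direction in the other comparisons (mean of at least 5 CPM) and, in the substrain, sex-linked and nuclear RNA lists, every tested member. Others, such as Nr1d1 and uncalled list members, were chosen after their values were seen. Some genes that this rule names are not reported here. The libraries, members and lists were chosen with earlier results of these data known.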

Additional observations from a re-analysis of the deposited data

Results flagged for a closer look

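In groups of 4 libraries, a library was singled out where the ratio of its gap to the nearest other and the group's range passed Dixon's 95% limit, which chance does in about 1 in 20 groups. Library CN6 4 stood apart most often, always as the highest albino library: Myh15 at 13.7 CPM, Junb at 53.6 CPM, Egr1 at 165 CPM, Ier2 at 35.2 CPM, Rrad at 8.36 CPM, Lars2 at 12330 CPM and Rn45s at 105600 CPM. CN6 3 was the highest albino library for Wdfy1 (7.001 CPM), and stood apart for Rab27a (1.00 CPM), Col5a2 (30.3 CPM) and Neat1 (526 CPM). The library albino TA 4 stood apart for Ciart (3.15 CPM), Wee1 (3.44 CPM), Mstn (42.5 CPM) and Ddit4 (58.5 CPM). In C57BL/6 this was the case for replicate 2 at Junb (2.30 CPM), replicate 3 at Kdr (25.7 CPM) and Doc2b (3.81 CPM), and replicate 1 at Angptl4 (0.640 CPM).

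For 48 of the named genes, the genotype difference differed between limb and eye muscle by the interaction test (edgeR, adjusted p under 0.05). The values are log2, limb minus eye muscle. Among macrophage, complement and other leukocyte genes it was Lyz2 1.76, Csf1r 2.25, Tyrobp 1.73, C1qa 1.57, Cd74 1.05, H2-Aa 1.09, H2-Ab1 0.96, H2-Eb1 1.14, C3 1.52, Serping1 1.12 and Cfp 0.98. Among matrix, vessel and secreted protein genes it was Fbn1 1.15, Dcn 1.35, Dpt 1.36, Col5a2 1.64, Col15a1 0.92, Dkk3 1.49, Cd34 0.75 and Egfl7 -0.43. Among clock genes it was Arntl -1.09, Nfil3 -1.68, Per2 1.00, Per3 0.84, Nr1d1 0.59, Nr1d2 0.74, Dbp 0.82 and Hlf 1.11. Among muscle structure and growth genes it was Actn3 -0.47, Myh15 4.04, Des -0.38, Hdac4 1.30, Ankrd1 1.53, Fbxo32 0.83, Fst 1.13 and Hspb7 0.81. Among metabolic and signalling genes it was Nnt -1.05, Glul -1.28, Angptl4 1.22, Phka1 -0.49 and Gstm1 -0.48. Of the remaining genes it was Hoxc10 -3.93, Rab27a -2.37, Rn45s 3.80, Lars2 3.52, Neat1 -1.63, Doc2b -2.17, Amhr2 -2.17 and Cyp4f39 -1.89.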

How the results depend on the processing

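The genotype comparison of limb muscle called 3520 to 4466 genes when 1 library was left out (lowest without albino TA 3, highest without CN6 3), against 4361 with all 8, and 2677 with the reassigned pair alone. With the groups as labelled, that is with 2 libraries that hold no muscle transcripts in place of the reassigned pair, 18 genes were called. The cause of these changes was not tested. The comparison of the labelled with the reassigned albino pair called 1 gene, 32 with no filter on low counts, 15 with DESeq2, and 1 to 235 when 1 library was left out. The difference between limb and eye muscle called 1333 to 2469 genes when 1 library was left out, against 1988. The replicate block gave 2895 calls between genotypes and 4 between the albino pairs. As the albino libraries carry only the numbers 3 and 4, C57BL/6 replicates 1 and 2 stood alone in their blocks. They added nothing to the genotype contrast, which then rested on C57BL/6 replicates 3 and 4. Same-numbered libraries did not deviate together (r across genes of 0.06, -0.123, 0.025 and -0.01), so the numbers are taken as names only, and the best correlation of each albino library was not always with its own number.

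Of 105 genes named in the text that entered the main fit, 98 were called, and 89 of those in each of the 8 fits without 1 library. Most were chosen from these same data for a small adjusted p or a large change, so these counts are a description. They include Npas2, Rrad, Doc2b, Hif3a, Zxda and Cfap43, which could pass the filter through 1 genotype alone. The direction turned for Myh15 in the labelled pair alone (-1.64) and for Chac1 in the reassigned pair alone (-1.03). With the groups as labelled, 11 of the 105 kept their side of the threshold, 76 lost the call and 18 turned direction. The 18 that turned were Rab27a (0.0081), Wee1 (0.52), Pdgfrb (-0.0053), Sln (-0.41), Rapsn (-0.54), Ankrd1 (-0.20), Pik3r1 (0.025), Glul (0.18), Eci1 (-0.32), Fabp3 (-0.15), Cox8b (-0.51), Cyc1 (-0.44), Rplp1 (-0.24), Hspb7 (-0.11), Doc2b (1.87), Cyp4f39 (-0.35), Hif3a (0.83) and Cfap43 (0.64). With the block 13 of the 105 lost the call, and with GC and length offsets 9 lost and 3 gained it. The 4 libraries a genotype, the unknown time of collection and the small counts of genes near 1 CPM limit what can be read from single genes.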
